A study of Homo sapiens with 6 samples.

Results

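The core pluripotency factors were followed through 10 genes among the 19977 genes counted in each library. They comprise POU5F1, NANOG, SALL4, LIN28A, LIN28B, DPPA2, DPPA4 and L1TD1, together with POU5F1B and NANOGP8, retrocopies of POU5F1 and NANOG. Members were chosen by name, by matching the Ensembl identifiers of the count tables to GENCODE 44 symbols. All 10 had a row in each library, and all 10 passed the filter of at least 10 counts in total.

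The cells were NCRM-1, an established human iPSC line made from CD34+ cord blood cells by the episomal plasmid method, labelled wild type. Single cells were seeded in vertical wheel bioreactors and grown as aggregates for 4 days. On day 2, 50% of the medium was exchanged. Stranded libraries were made from mRNA. The PEG and HS group (n = 3) received E8 medium with 10 mg/ml polyethylene glycol and 0.1 µg/ml heparin sodium salt. The Control group (n = 3) received E8 medium, to which per the labels nothing was added, although one protocol field describes the additives for all 6 libraries. Cells of both media were seeded with the ROCK inhibitor Y-27632. The titles give each medium a single bioreactor letter, so the 3 libraries of a medium may come from 1 vessel. Vessel and medium then cannot be told apart, and each p-value measures only the spread between these samples, which may be technical.

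POU5F1 (OCT4) and NANOG are homeodomain transcription factors that, with SOX2, bind one another's regulatory DNA and hold human pluripotent cells undifferentiated. SALL4, a zinc finger factor, joins this circuit and recruits the NuRD chromatin complex. LIN28A and LIN28B are RNA-binding proteins that block maturation of the differentiation-promoting let-7 microRNAs. DPPA2 and DPPA4 are neighbouring genes for SAP domain chromatin proteins that act as a pair, and L1TD1 is an RNA-binding protein that arose from the LINE-1 retrotransposon. Retrocopies arise when a spliced mRNA is copied back into the genome, which leaves a gene body without introns.

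The copies are so like their parent genes that the counts cannot be read without the sequence. The canonical transcript of NANOG has 4 exons and that of NANOGP8 has 1. Their coding sequences, each 915 bases without the stop codon, differed at 5 positions (99.5% identity), and the longest stretch without a difference was 284 bases. Counted from 1 at the A of the start codon, with the NANOG base first, the differences were C47A, G144A, G246T, T531C and G759C. The windows around positions 144 and 246 are shown because they hold bases by which a read can be assigned to one or the other. Capitals mark the differing base.
NANOG, position 144: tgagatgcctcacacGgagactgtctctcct
NANOGP8, position 144: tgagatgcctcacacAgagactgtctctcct
NANOG, position 246: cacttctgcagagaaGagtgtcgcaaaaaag
NANOGP8, position 246: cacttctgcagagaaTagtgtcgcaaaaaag
In GRCh38 the first NANOG window lies at chr12:7789743-7792957 on the plus strand, where its 31 bases are split over a coding exon pair and span 3215 bases of the genome. The same 31 bases of NANOGP8 lie unbroken at chr15:35084952-35084982 on the minus strand. The second window lies within a coding exon at chr12:7793029-7793059 in NANOG and at chr15:35084850-35084880 in NANOGP8.

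Of the 31-base words in the annotated transcripts of NANOGP8, 88.1% also occurred in transcripts of other genes, and 82.2% occurred in NANOG. For NANOG the share was 38.2%, with 28.2% in NANOGP8. NANOGP1, a pseudogene that was not analysed here, held 9.44% of the words of NANOG. The canonical transcripts of POU5F1 (5 exons) and POU5F1B (1 exon) were 97.9% identical over 1077 aligned coding bases, with 23 differences. POU5F1B has 3 annotated transcripts, and their merged exons cover 4964 bases against 1080 in the canonical one. Of the words of POU5F1, 45.1% also occurred in other genes. POU5F1B held 24.2% of all words of POU5F1, and the pseudogene POU5F1P3 held 20.1% of them. The paralogs LIN28A and LIN28B (72.3% identity) and DPPA2 and DPPA4 (66.6% identity) are far less alike, with no identical coding run over 15 and 23 bases, respectively. How reads matching more than 1 gene were handled is not given in the sources used here. Each value of a gene or its copy below therefore depends on that step, and the summed counts of gene and copy are given beside them.

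Libraries held between 28148630 and 33849198 counts with PEG and HS, against 26991279 to 36185138 in Control, so depth overlapped between the media. Levels are given as CPM, the counts of a gene per 1000000 counts of its TMM-scaled library, which leaves gene length out of account. Differences were tested with the quasi-likelihood F test of edgeR over the 16505 genes that passed the filter. A gene was called at a Benjamini-Hochberg adjusted p under 0.05. Undifferentiated cell markers were abundant, with a summed level of 8074 to 8346 CPM over 8 genes in PEG and HS and 8660 to 8824 CPM in Control. Of these 8 genes, 2 rose and 4 fell. Of 10 neuroectoderm markers 8 fell and 0 rose, with summed levels of 572 to 612 CPM with PEG and HS against 773 to 801 CPM in Control, most of it NES. Of 7 tested trophectoderm and amnion markers 5 fell and 0 rose (16.4 to 17.6 against 32.7 to 34.5 CPM), with CGA at 0 counts in all 6 libraries and CDX2 at 3 counts in total. Of 7 tested endoderm markers 1 fell (7.04 to 7.62 against 9.42 to 11.8 CPM). Of 9 tested mesoderm and primitive streak markers 1 rose and 2 fell (64.4 to 67.7 against 58.1 to 62.3 CPM). Most of that sum was KDR, the marker that rose. The share called was 75.0% for undifferentiated cells, 80.0% for neuroectoderm and 71.4% for trophectoderm and amnion, against 25.3% over all genes tested. For endoderm (14.3%) and for mesoderm and primitive streak (33.3%) it was nearer to that of all genes. The part of these lineage markers in the results below was not tested. In these bulk samples, fewer cells of a type and less RNA per cell cannot be told apart.

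In PEG and HS, 6 of the 10 genes rose, 2 fell and 2 were not called. NANOG, NANOGP8, DPPA2, L1TD1, DPPA4 and POU5F1 were higher, SALL4 and LIN28A were lower, and POU5F1B and LIN28B did not pass the test. Over all genes tested, 25.3% were called, 12.2% higher and 13.1% lower. The 8 called genes were also those whose libraries did not overlap between media, which held for 39.3% of all genes tested, 19.5% higher and 19.8% lower. DESeq2 also called these 8, where it called 20.6% of all genes tested. The median log2 fold change of the 10 genes was 0.27, against 0.0031 over all genes tested. Each difference was less than 1.5-fold on the linear scale, the largest being NANOGP8 at 1.47-fold. Summed over the 10 genes, the level was 6152 ± 90.6 CPM (SD, n = 3) with PEG and HS and 5710 ± 43.2 CPM in Control.

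**Figure D1:**
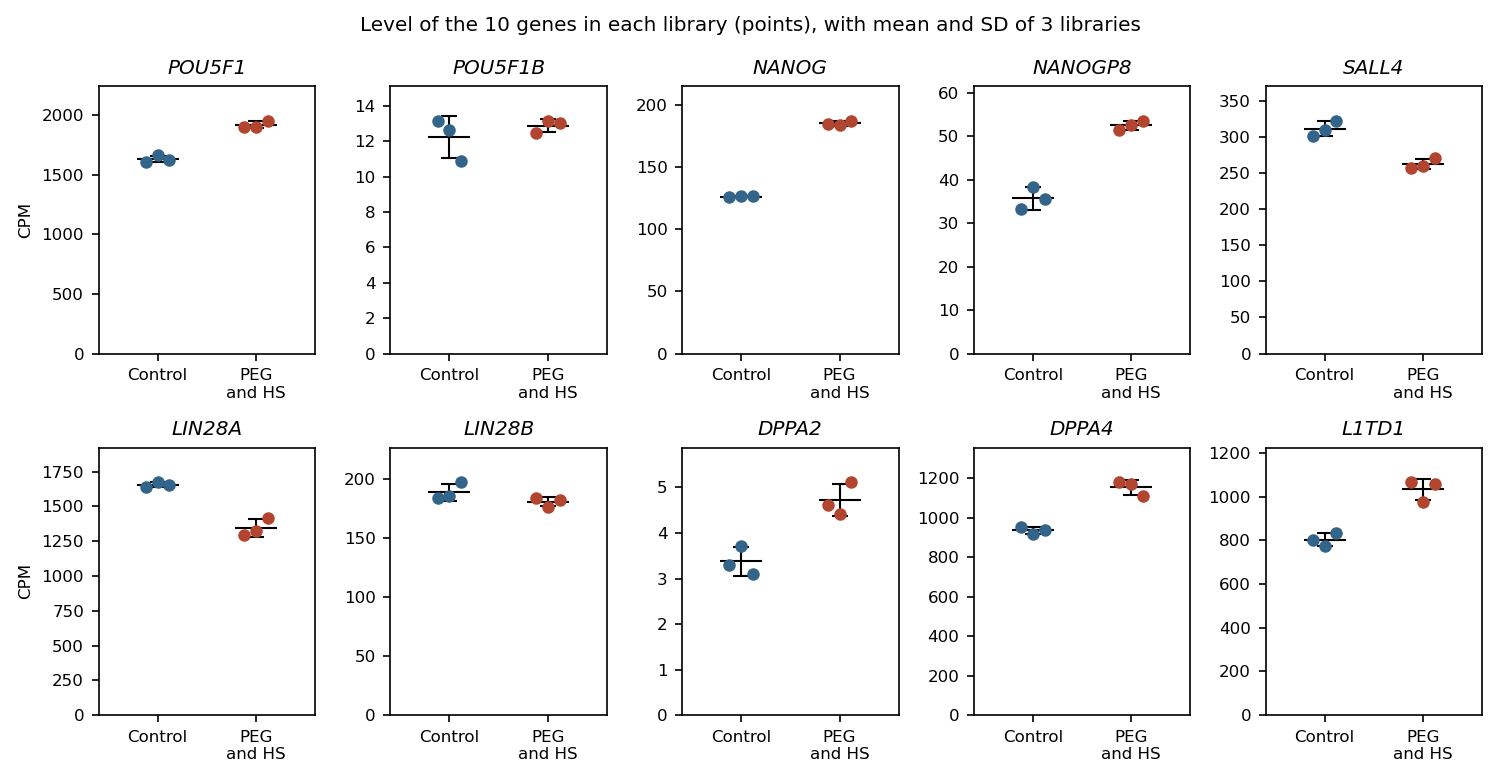
Level in CPM (y axis, from 0) of each of the 10 genes in the 3 Control libraries (blue points) and the 3 PEG and HS libraries (red points), with horizontal lines for the mean and bars for the SD. The points of the 2 media are apart in 8 genes and overlap in POU5F1B and LIN28B.

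POU5F1 (ENSG00000204531, chromosome 6, 31164337 to 31180731, minus strand) was the most counted of the 10 with PEG and HS. In Control, LIN28A was counted more, with a mean of 1658 CPM against 1635 CPM for POU5F1. The level of POU5F1 was 1905, 1906 and 1954 CPM with PEG and HS and 1611, 1665 and 1629 CPM in Control. All 3 PEG and HS libraries lay above all 3 Control libraries, and the gap between the groups was wider than the range within either. The rise was 1.18-fold (log2 fold change 0.23, SE 0.024, adjusted p = 3.2e-06). The annotated exons of POU5F1 overlap those of TCF19 on the opposite strand over 248 bases, and whether counting used strand is not given in the sources used here.

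POU5F1B (ENSG00000212993, chromosome 8, 127322183 to 127420066, plus strand) was counted far less than its parent gene. It had 421, 372 and 442 counts with PEG and HS, or 12.5, 13.2 and 13.1 CPM, and 355, 411 and 393 counts in Control, or 13.2, 12.7 and 10.9 CPM. The ranges overlapped, and the lowest value was that of Control replicate 3. The log2 fold change was 0.082 with a 95% interval of -0.078 to 0.24 (adjusted p = 0.475), an interval that also holds the value of POU5F1. As a share of the counts of the pair, POU5F1B took 0.651%, 0.686% and 0.664% in PEG and HS and 0.810%, 0.754% and 0.664% in Control. The share was not shown to differ by the exact two-sided permutation test (difference -0.076 percentage points, p = 0.2, adjusted p = 0.4 over 4 such shares), a test that with 3 against 3 libraries cannot fall below 0.1. POU5F1B also shares 848 exonic bases with PCAT1, a long noncoding RNA gene on the same strand, so reads there cannot be told apart. With the counts of gene and copy added, the pair reached 1934 ± 28.0 CPM (SD, n = 3) with PEG and HS and 1647 ± 27.9 CPM in Control. The log2 fold change of the pair was 0.23 (SE 0.024, adjusted p = 3.32e-06), which is the value of POU5F1.

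NANOG (ENSG00000111704, chromosome 12, 7787794 to 7799146, plus strand) showed the tightest separation. It was at 184, 184 and 187 CPM with PEG and HS and at 126, 127 and 127 CPM in Control. No library lay between the groups, and the values within a medium differed by less than counting error alone would give: the coefficient of variation in Control was 0.483%, where counts of that size give 1.59%. The rise was 1.47-fold (log2 fold change 0.55, SE 0.027, adjusted p = 6.55e-10).

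NANOGP8 (ENSG00000255192, chromosome 15, 35083410 to 35085295, minus strand) rose by a like amount. It was at 51.6, 52.6 and 53.6 CPM with PEG and HS and 33.2, 38.3 and 35.6 CPM in Control. The groups did not overlap, and the Control libraries were the more spread, with a coefficient of variation of 7.16% against 1.91% in PEG and HS. The log2 fold change was 0.56 (SE 0.048, adjusted p = 4.48e-07). Of the counts of the pair, NANOGP8 took 21.9%, 22.3% and 22.3% in PEG and HS and 20.9%, 23.2% and 21.96% in Control. The PEG and HS shares all lay inside the Control range, and their means differed by 0.092 percentage points (exact two-sided permutation test, p = 1.0, adjusted p = 1.0 over 4 shares). The 95% Wilson interval of a single library reached up to 1.22 percentage points to either side, for counting error only. Added together, NANOG and NANOGP8 reached 238 ± 2.62 CPM (SD, n = 3) with PEG and HS, and 162 ± 3.11 CPM in Control. That is a log2 fold change of 0.55 (SE 0.027, adjusted p = 7.7e-10). The sum does not depend on how the reads counted on either gene were divided between them. It still depends on whether reads matching more than 1 gene were left out or counted elsewhere, which is not given.

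**Figure D2:**
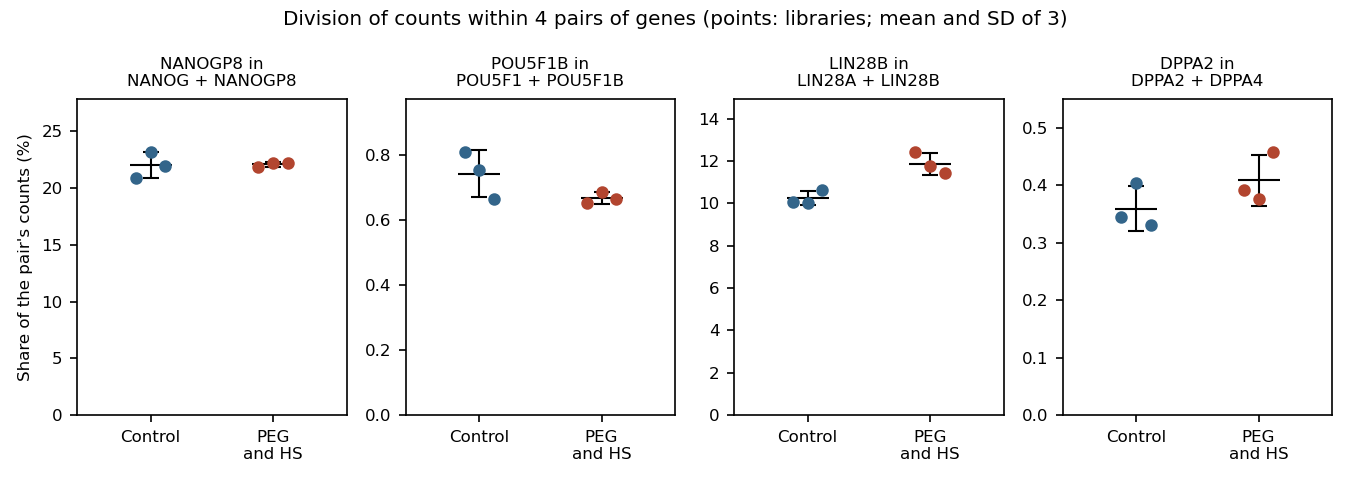
Percent of a pair's counts (y axis, from 0) that fell on NANOGP8, POU5F1B, LIN28B and DPPA2, in the 3 Control libraries (blue) and the 3 PEG and HS libraries (red), with mean and SD. The media overlap in 3 pairs, and LIN28B lies higher in each PEG and HS library, at 11.4% to 12.4% against 10.0% to 10.6%.

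The stretch before the NANOG start site is shown because it holds letters of both OCT4 and SOX2 binding sequences side by side. It is the 250 bases before the start given by RefSeq (GRCh38.p14, chr12:7789152-7789401, plus strand). Capitals mark TTTGCAT, which is ATGCAAA on the other strand and makes up 7 letters of the octamer bound by POU factors, and ACAATG, letters of a SOX site.
NANOG promoter: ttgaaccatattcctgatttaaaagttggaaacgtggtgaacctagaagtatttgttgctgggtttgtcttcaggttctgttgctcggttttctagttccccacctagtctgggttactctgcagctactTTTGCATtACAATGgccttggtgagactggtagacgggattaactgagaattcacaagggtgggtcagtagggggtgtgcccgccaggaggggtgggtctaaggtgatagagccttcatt
The matches begin 120 and 112 bases before the start, 1 base apart. Searched on both strands, ATGCAAA occurred in 4.46% and ACAATG in 10.8% of the 35116 promoters of the same table, each 250 bases before and 50 after a start. The full octamer ATGCAAAT, which contains ATGCAAA, occurred in 1.77% of them and not in this window. The table held windows for 5 of the 10 genes, namely NANOG, LIN28B, DPPA2, DPPA4 and L1TD1, and ATGCAAA occurred in NANOG alone among these. The last 7 letters of the octamer, TGCAAAT, were not part of the search, and the DPPA4 window holds them. A match of letters is a description and not a binding site.

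SALL4 (ENSG00000101115, chromosome 20, 51782331 to 51802521, minus strand) went the other way. It was at 257, 260 and 270 CPM with PEG and HS and 301, 309 and 322 CPM in Control. Every PEG and HS library lay under every Control library. The change was 0.844-fold (log2 fold change -0.25, SE 0.031, adjusted p = 2.53e-05).

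LIN28A (ENSG00000131914, chromosome 1, 26410817 to 26429728, plus strand) was the second gene to fall. Its level was 1297, 1324 and 1418 CPM with PEG and HS and 1643, 1673 and 1658 CPM in Control. The groups did not overlap, although PEG and HS replicate 3 lay nearer to Control than the other two. The change was 0.812-fold (log2 fold change -0.30, SE 0.03, adjusted p = 2.64e-06).

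LIN28B (ENSG00000187772, chromosome 6, 104936616 to 105083332, plus strand) was at 184, 176.6 and 183 CPM with PEG and HS and 184, 186 and 197 CPM in Control. The lowest Control library lay within the PEG and HS range. The log2 fold change was -0.063 with a 95% interval of -0.13 to 0.0052 (adjusted p = 0.174), an interval that does not reach the value of LIN28A. LIN28B made up 12.4%, 11.8% and 11.4% of the counts on both LIN28 genes in PEG and HS and 10.1%, 10.0% and 10.6% in Control. The share was thus higher in each PEG and HS library (difference 1.63 percentage points, exact two-sided permutation p = 0.1, the smallest that 3 against 3 allows, adjusted p = 0.4 over 4 shares). Exons of an antisense gene, LIN28B-AS1, overlap those of LIN28B.

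DPPA2 (ENSG00000163530, chromosome 3, 109293788 to 109316517, minus strand) was the gene with the fewest counts. It had 156, 125 and 173 counts with PEG and HS and 89, 121 and 112 in Control. This corresponds to 4.63, 4.42 and 5.11 CPM and to 3.30, 3.72 and 3.10 CPM. The groups did not overlap, and the gap between the highest Control and the lowest PEG and HS library was only just wider than the range within each group. The log2 fold change was 0.49 (SE 0.12, adjusted p = 0.00786), and its 95% interval of 0.23 to 0.75 was the widest of the 10.

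DPPA4 (ENSG00000121570, chromosome 3, 109326144 to 109337546, minus strand), the neighbour of DPPA2, was at 1179, 1173 and 1110 CPM with PEG and HS and 953, 919 and 938 CPM in Control. All PEG and HS libraries lay above all Control libraries (log2 fold change 0.30, SE 0.028, adjusted p = 1.06e-06). DPPA2 made up 0.391%, 0.376% and 0.458% of the counts of the pair in PEG and HS and 0.345%, 0.403% and 0.330% in Control. These ranges overlapped (difference 0.049 percentage points, exact two-sided permutation p = 0.3, adjusted p = 0.4 over 4 shares), and the share of a single library carried a counting error of up to 0.072 percentage points.

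L1TD1 (ENSG00000240563, chromosome 1, 62194849 to 62212328, plus strand) was at 1065, 976 and 1056 CPM with PEG and HS and 800.0, 775 and 835 CPM in Control. The groups were apart, with PEG and HS replicate 2 the nearest to Control. The rise was 1.29-fold (log2 fold change 0.36, SE 0.035, adjusted p = 1.49e-06). An annotated Y RNA shares 110 exonic bases with L1TD1 on the same strand.

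**Figure D3:**
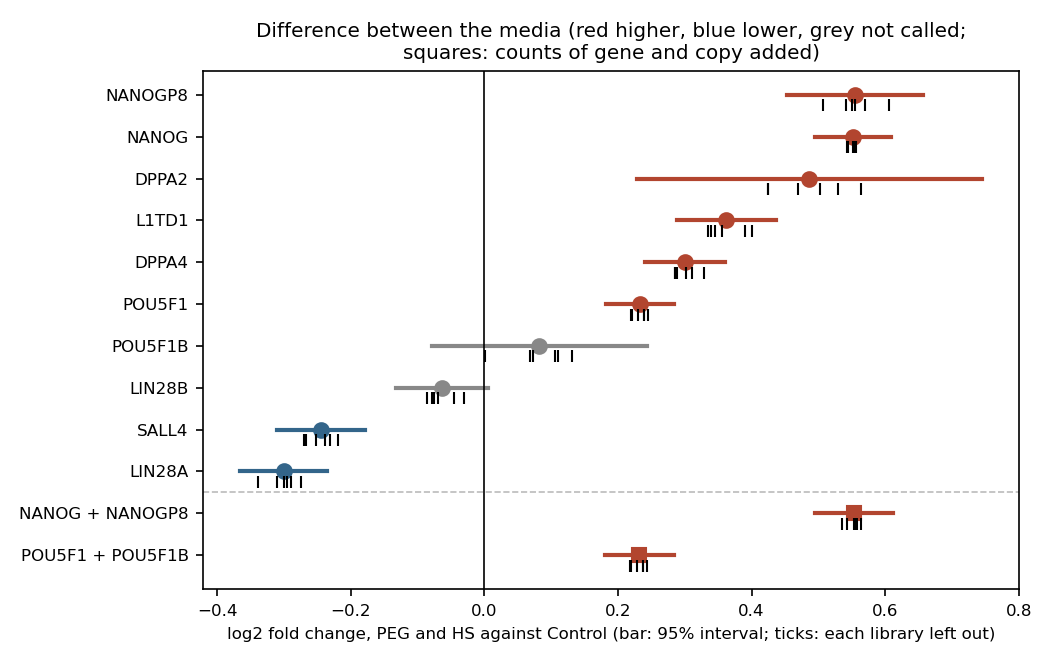
Log2 fold change of PEG and HS against Control (x axis) for each gene, with its 95% interval as a bar and black ticks for the value with each of the 6 libraries left out. NANOGP8 and NANOG lie highest at 0.56 and 0.55, LIN28A lowest at -0.30, the intervals of POU5F1B and LIN28B cross 0, and the summed pairs (squares) lie at the values of NANOG and POU5F1.

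Levels can be set against each other only per length. In CPM per kilobase of merged exons, the order in Control was POU5F1 (570 ± 9.71, SD, n = 3), LIN28A (417 ± 3.83), L1TD1 (210 ± 7.83), DPPA4 (189 ± 3.43), SALL4 (53.8 ± 1.80), LIN28B (31.8 ± 1.21), NANOG (23.4 ± 0.113), NANOGP8 (18.9 ± 1.36), POU5F1B (2.46 ± 0.240) and DPPA2 (2.44 ± 0.229). The ranges of neighbours in this order did not overlap, except those of POU5F1B and DPPA2, which did not differ beyond their spread. In PEG and HS, NANOG (34.3 ± 0.327) stood above LIN28B (30.5 ± 0.678), and DPPA2 (3.41 ± 0.256) stood above POU5F1B (2.599 ± 0.0738), each without overlap. The other places were the same in both media. POU5F1 was 1.37 times the level per kilobase of LIN28A in Control and 1.98 times in PEG and HS. NANOG exceeded its copy by 1.24-fold per kilobase of merged exons in Control. Per kilobase of coding length the gap was wider, at 138 against 39.03 CPM. The order rests on the length used, since with coding length only 3 of the 10 genes kept their place in Control and LIN28A came first. Both orders named for PEG and HS were also reversed with coding length. There LIN28B (222 CPM per kilobase) stood above NANOG (202), and POU5F1B (11.98) stood above DPPA2 (5.28).

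**Figure D4:**
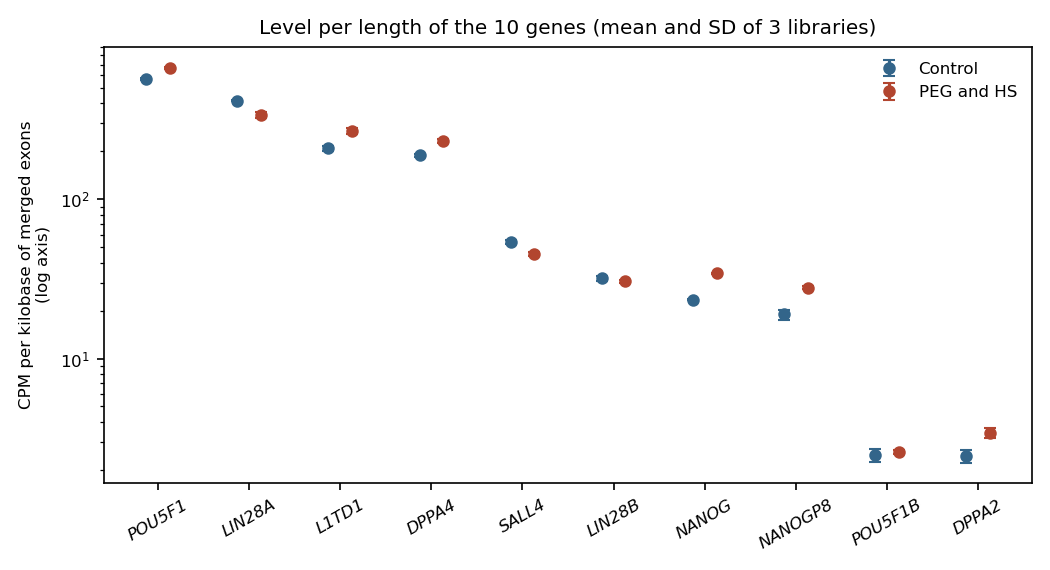
Level in CPM per kilobase of merged exons (y axis, log scale) of the 10 genes, ordered by Control, as mean and SD of the 3 libraries of each medium. POU5F1 stands highest at 570 in Control and 670 in PEG and HS, and POU5F1B and DPPA2 lie lowest, between 2.44 and 3.41.

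Within PEG and HS, replicate 3 was the highest library for 6 of the 10 genes, and within Control, replicate 1 was the lowest for 6. For the most counted genes the spread exceeded counting error, as in LIN28A in PEG and HS (coefficient of variation 4.73% against 0.484% from counting). For DPPA2 it did not (7.49% against 8.18%).

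The genes around these factors were read from lists of partners and relatives. Of 20 other pluripotency network genes, all tested, 8 rose and 7 fell. That is 75.0% called, against 25.3% over all genes tested, with a median log2 fold change of 0.032. SOX2, the partner of OCT4 on composite sites, fell from 412 ± 11.8 CPM to 273 ± 3.92 CPM (SD, n = 3; log2 fold change -0.59, SE 0.028, adjusted p = 4.79e-10). SOX2 also marks neural progenitors, and its direction was opposite to that of POU5F1 and NANOG. TFCP2L1, known from naive pluripotency, rose most (0.57, SE 0.066, adjusted p = 1.18e-05), followed by GDF3, a TGF-beta family ligand (0.41, SE 0.055, adjusted p = 5.48e-05).

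Of 16 genes of let-7 processing and let-7 targeting, 3 rose, 2 fell and 11 were not called. The share called, 31.3%, was near the 25.3% over all genes tested, and the median log2 fold change was 0.011. The largest changes were small. IGF2BP3 (log2 fold change -0.20, SE 0.026, adjusted p = 3.18e-05) and TRIM71 (-0.11, SE 0.026, adjusted p = 0.00533), both let-7 targets, fell. DROSHA, the nuclear microRNA processing enzyme, rose (0.12, SE 0.03, adjusted p = 0.00766), as did the let-7 target IGF2BP1 (0.10, SE 0.024, adjusted p = 0.00661). Of 14 NuRD genes 3 rose and 4 fell (50.0%, median -0.037), from MTA3 (-0.23, SE 0.028, adjusted p = 1.42e-05) and MBD2 (-0.20, SE 0.051, adjusted p = 0.00906) to HDAC2 (0.14, SE 0.029, adjusted p = 0.00195) and CHD3 (0.20, SE 0.032, adjusted p = 0.00025).

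Of 15 close relatives, POU family genes and NANOGNB, 12 passed the filter, 2 rose and 3 fell (41.7%, against 25.3% over all genes tested, median -0.28). POU3F1, the octamer-binding factor OCT6, was at 27.5 ± 1.75 CPM in Control and rose to 32.2 ± 1.80 CPM (SD, n = 3), a log2 fold change of 0.23 (SE 0.056, adjusted p = 0.00714), and POU2F1 (OCT1) rose by 0.10 on the log2 scale (SE 0.035, adjusted p = 0.0408). POU2F3 (-1.51, SE 0.37, adjusted p = 0.00735) and POU4F1 (-1.01, SE 0.32, adjusted p = 0.0283) fell from near 1 CPM.

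**Figure D5:**
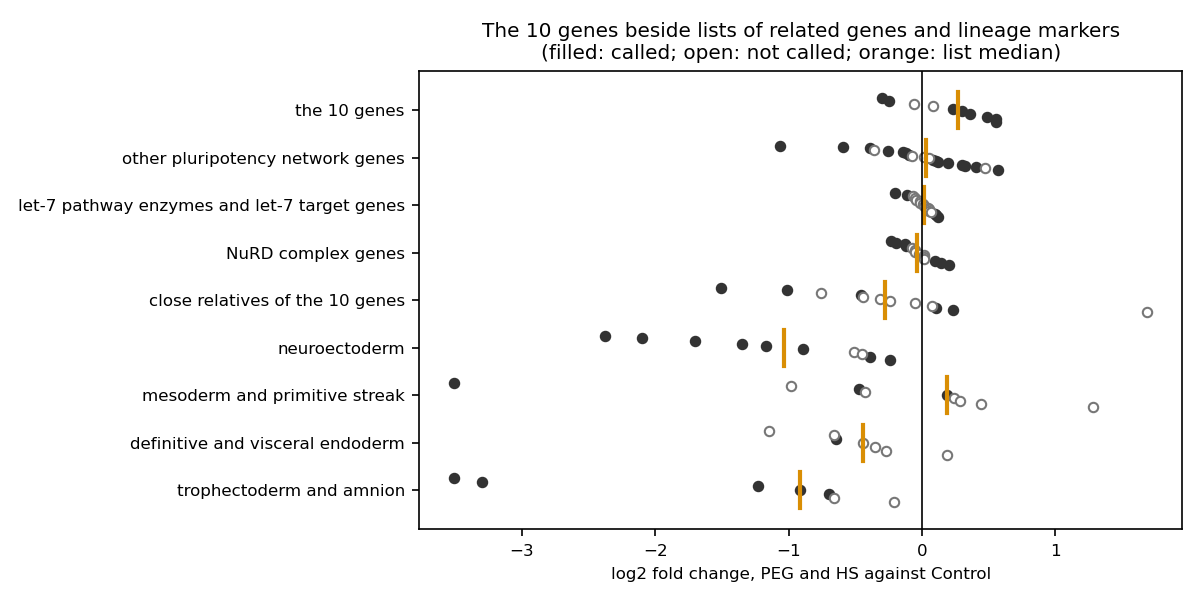
Log2 fold change of PEG and HS against Control (x axis) of each tested gene in the lists named on the y axis, filled where called and open where not, with the list median in orange. The 10 genes have a median of 0.27, the pluripotency network 0.032, and the neuroectoderm markers -1.03. The markers of undifferentiated cells, some of them among the 10 genes, are not drawn and have a median of -0.12.

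The genes whose pattern over the 6 libraries was most like that of POU5F1 and NANOG were sought among 10057 other genes with a mean of at least 10 CPM. Likeness was the root mean square distance of centred log2 CPM. CXXC5 (0.0080), LDHA (0.0092) and DHRS13 (0.014) lay nearest to POU5F1. ITPR2 (0.014), L1CAM (0.025) and PPP3CA (0.026) lay nearest to NANOG. Among the 10 genes themselves, the nearest to POU5F1 was DPPA4 (0.060) and the nearest to NANOG was NANOGP8 (0.057). The 6 named genes had log2 fold changes between 0.23 and 0.58, and nothing is drawn from the likeness about function.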

How the data were processed

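Bulk RNA was measured in 6 libraries, 3 per medium. The authors trimmed reads with Trim Galore 0.6.7 and mapped them to GRCh38 with STAR 2.6.1 in an nf-core pipeline, and deposited raw counts per gene. The counting tool, its use of strand and the annotation release are not given in the sources used here. Of 19977 identifiers, 19916 matched GENCODE 44.

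Genes with at least 10 counts in total were scaled with TMM and tested in R 4.3.3 by the quasi-likelihood functions of edgeR 4.0.16, with medium as the only term. The Benjamini-Hochberg adjustment ran over all genes tested. The SE of a log2 fold change was its size divided by the root of the F statistic. DESeq2 1.42.0 and limma-voom (limma 3.58.1) were alternatives. Shares of a pair were compared with exact permutation tests. Sequence sharing counted 31-base words of GENCODE transcripts, and coding sequences were aligned with Biopython 1.88. Promoters came from RefSeq (GRCh38.p14).

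The 10 genes and the lists were chosen with earlier results of these data known. Named besides the 10 genes are SOX2, per list of related genes, the 2 called genes that rose most and the 2 that fell most, and the 3 nearest patterns. A gene that this rule names is not reported here. Marker lists were read as counts and sums, with NES, CGA, CDX2, KDR and the markers of undifferentiated cells also named. SALL1, SALL2, SALL3 and PODXL are given with their values outside the naming rule. On simulated counts with 200 of 16505 genes changed, edgeR recovered 97% for PEG and HS against Control, and 3% of its calls were false. Whether the 97% holds for differences as small as those seen in the 10 genes was not tested. Counts of replicates differed beyond counting noise (chi-square divided by its degrees of freedom 2.61 to 3.60), which does not tell separate cultures from separate preparations of 1 culture.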

Additional observations from a re-analysis of the deposited data

How the results depend on the processing

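For each of the 10 genes, neither direction nor call changed under 13 alternatives, which were 2 other scalings, 2 other filters on low counts, DESeq2, limma-voom, the replicate block and each of the 6 libraries left out. In each of these, 8 were called, 6 higher and 2 lower. Over all genes tested, 3114 to 4444 were called under these alternatives against 4173. The highest adjusted p of a called gene was 0.0387, for DPPA2 with a library left out. The log2 fold change of POU5F1B lay between 0.00017 and 0.13, and that of LIN28B between -0.085 and -0.031. With NANOG and NANOGP8 added it lay between 0.54 and 0.56, and with POU5F1 and POU5F1B added between 0.22 and 0.24. The share of NANOGP8 in its pair differed by -0.47 to 0.69 percentage points with a library left out, so its sign changed. The order of levels per length was the least stable: with coding length 3 of the 10 genes kept their place in Control, and with the canonical transcript, an alternative chosen after seeing the data, 8 did.

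With the replicate number as a block, 8 of the 10 genes and 4444 genes in all were called. Libraries with the same number correlated at 0.0081, -0.011 and 0.056 in their deviations over 10069 genes. None correlated best with its own number, so no sign of pairing by number was seen. Deviations from the mean of so few libraries offset one another, so these values cannot exclude a pairing. Depth limits DPPA2, with 89 to 173 counts per library, and POU5F1B, with 355 to 442.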

Other observations

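Among the relatives of SALL4, values chosen after they were seen, SALL1 fell (log2 fold change -0.39, SE 0.029, adjusted p = 9.52e-08), from 154 ± 2.37 CPM (SD, n = 3) in Control to 117 ± 2.36 CPM under PEG and HS. SALL3 fell as well (-0.14, SE 0.031, adjusted p = 0.00364), whereas SALL2 rose (0.085, SE 0.027, adjusted p = 0.0325). Of the 4 SALL genes, SALL2 was therefore the only one that rose. SALL2 was also the most counted of them, with 648 ± 14.3 CPM under PEG and HS against 611 ± 14.8 CPM in Control. PODXL, which encodes the sialomucin that carries the TRA-1-60 epitope, had 1868 ± 16.8 CPM in Control and fell to 1403 ± 17.4 CPM, a log2 fold change of -0.41 (SE 0.023, adjusted p = 3.19e-09). Of the 8 genes taken as markers of undifferentiated cells, POU5F1 and NANOG rose, SOX2, LIN28A, SALL4 and PODXL fell, and DNMT3B and TDGF1 were not called.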
